A study of Homo sapiens with 12 samples.

Results

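The elements described here are copies of the primate L1 subfamilies L1PB, L1P1 to L1P5 and L1PREC2, read on their own strand in RNA that co-purified with ZC3H18 from human melanoma cells. An element was a member when reads lay on its annotated strand and its RepeatMasker subfamily name began with L1PB, began with L1P followed by a digit, or was L1PREC2. Beyond the presence of such reads in any library, the rule used no measured value. It gave 23670 elements of the 1509971 listed on their own strand in 6 repeat classes. They fell into 20 subfamilies, which were taken in 4 groups, namely L1PB (13956 elements), L1P1 to L1P3 (4264), L1P4 and L1P5 (1951) and L1PREC2 (3499). Anti-V5 PAR-CLIP was done on A375 cells, an established human melanoma line, after transient transfection of a pcDNA3.2 plasmid for a V5-tagged protein, with labelling by 4sU started 24 h later and crosslinking at 316 nm. The control protein was Clover, which is fluorescent. The others were full-length ZC3H18 (Z18fl), a truncated form (Z18trunc) and that same form with aromatic zinc-finger residues changed to alanine (Z18truncZnFmut). Each had 3 libraries, 12 in all. All 4 groups share the cell line, the plasmid backbone, the tag and the transfection, so the design is 1 line with plasmid-driven protein, and no group carries a labelled change of its own ZC3H18 gene. The comparisons asked which element RNAs each protein held above Clover, whether truncation changed this, and whether it rested on the aromatic residues.

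L1 is the long interspersed element of mammals, an autonomous retrotransposon whose transcript encodes an RNA-binding protein and an endonuclease with reverse transcriptase. Most copies were cut short at the 5′ end when they inserted and no longer move, and many lie in introns, where they are transcribed as part of a host gene's pre-mRNA. The coding strand of L1 is rich in adenosine. ZC3H18 is a CCCH zinc-finger protein that links the nuclear cap-binding complex to the NEXT complex, which hands nuclear RNA to the exosome for decay. In PAR-CLIP a uridine analogue fed to the cells lets light crosslink RNA to the protein it touches.

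The stretch below is shown because it lies in a member that rose among the most against Clover with Z18trunc and with Z18truncZnFmut, the L1P4a element in an intron of the long non-coding RNA gene ENSG00000285751. It is 300 bases of the hg38 reference from the middle of the element (chr11:39135001-39135300, minus strand), 5′ to 3′ on the strand of the element, written as DNA, and capitals mark every AATAAA motif, every run of TTTTT and every TTTTAT motif.
L1P4a_11_39133129: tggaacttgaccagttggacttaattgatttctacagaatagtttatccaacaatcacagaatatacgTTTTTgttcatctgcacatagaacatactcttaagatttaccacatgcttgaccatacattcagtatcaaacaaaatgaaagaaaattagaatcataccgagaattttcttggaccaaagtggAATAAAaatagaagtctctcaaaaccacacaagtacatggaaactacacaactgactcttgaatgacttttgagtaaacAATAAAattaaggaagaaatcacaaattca
The stretch holds 41.0% A and 27.3% T, with 2 AATAAA motifs and 1 run of TTTTT.

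Clover libraries held 16683132 to 17673644 aligned fragments, and the ZC3H18 libraries held 21285347 to 25686948. Replicate 3 of Z18truncZnFmut stood apart. It listed 17094 members, against 2173 to 7126 in the other 11 libraries, and 8406 members were listed in it alone. Its share of member reads on the strand of the element was 62.6%, against 70.4% to 86.2% elsewhere. Some results that include it are also given without it, and the other Z18truncZnFmut results include it. The files hold repeat elements, so the cell line and the expressed constructs were not checked against marker genes. No input RNA was analysed here, so more of an RNA in the cells and more binding per RNA cannot be told apart.

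The members took a larger part of the co-purified RNA with each of the 3 ZC3H18 proteins than with Clover. All counts are of reads, and crosslinked positions were not used. Scaled to 1000000 aligned fragments (CPM), the summed members were at 674, 561 and 589 in Clover and at 1357, 1276 and 1764 in Z18fl. They were at 1941, 1963 and 1689 in Z18trunc and at 1455, 1282 and 2616 in Z18truncZnFmut. Every library of the 3 ZC3H18 groups was above every Clover library. The Clover mean was 608 ± 58.5, and those of Z18fl, Z18trunc and Z18truncZnFmut were 1465 ± 261, 1864 ± 152 and 1784 ± 725 (CPM, SD, n = 3), or 2.41, 3.07 and 2.93 times as much. Without Z18truncZnFmut replicate 3 that group's mean was 1368, or 2.25 times Clover. The sum carries no test.

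Every ZC3H18 library was also above every Clover library in the share of all element counts. The members made up 1.61%, 1.45% and 1.55% of element counts in Clover and 2.62%, 2.59% and 3.20% in Z18fl. With Z18trunc they made up 3.49%, 3.45% and 2.90%, and with the mutant 2.73%, 2.49% and 2.90%. In the order Clover, Z18fl, Z18trunc, mutant the means were 1.54% ± 0.0781, 2.80% ± 0.346, 3.28% ± 0.329 and 2.71% ± 0.208 (SD, n = 3). Z18fl overlapped Z18trunc and the mutant, while the highest mutant library and the lowest Z18trunc library were equal when rounded. Within L1 as a whole the shift was smaller. Of all L1 counts the members were 8.02% ± 0.0864 with Clover, and 9.92% ± 0.417, 10.5% ± 0.571 and 9.56% ± 0.442 with Z18fl, Z18trunc and Z18truncZnFmut (SD, n = 3), again without overlap with Clover. Reads were also more often on the strand of the element. That share was 72.2% ± 1.86 in Clover, 82.5% ± 2.30 in Z18fl and 82.7% ± 5.25 in Z18trunc, with no overlap with Clover, and 75.03% ± 11.1 in Z18truncZnFmut, which overlapped Clover through replicate 3.

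**Figure D1:**
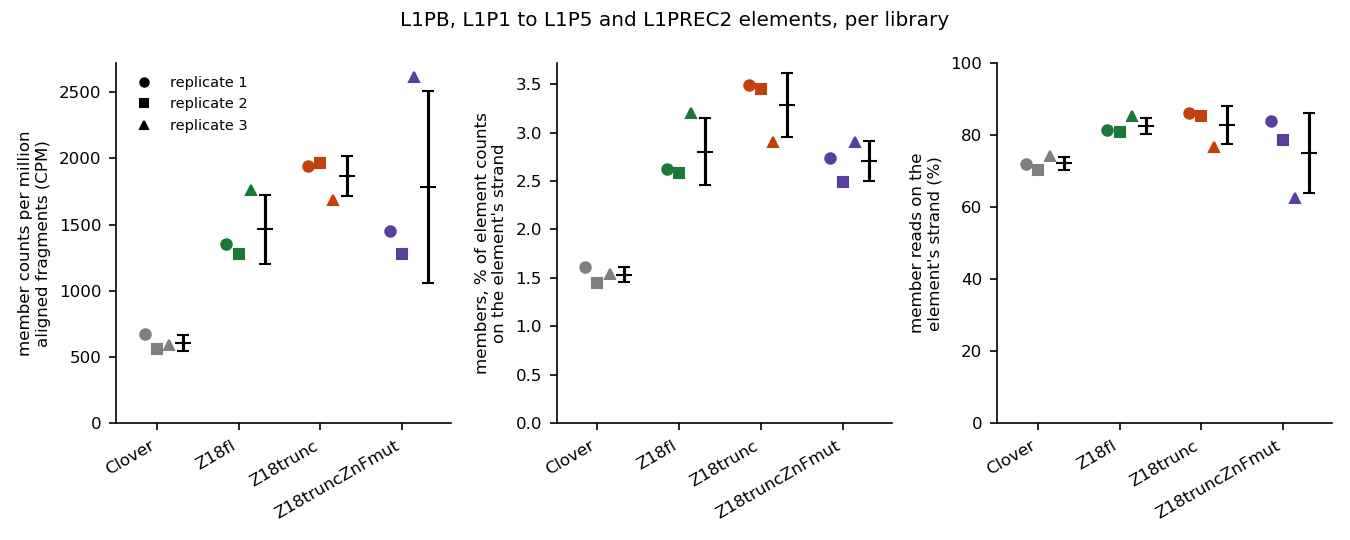
Level of the summed members in each of the 12 libraries, as CPM on the strand of the element (left), as percent of all element counts on that strand (middle) and as percent of member reads on that strand (right). Points are libraries with a shape for each replicate number, and bars are the mean and SD (n = 3). Every ZC3H18 library lies above the 3 Clover libraries in the first 2 panels, and Z18truncZnFmut replicate 3 has the highest CPM (2616) and the lowest strand share (62.6%).

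Summed by subfamily, nearly all members were higher with Z18fl and with Z18trunc than with Clover. With Z18fl 16 of the 19 subfamilies tested were called higher and 1 lower (edgeR, adjusted p under 0.05), where 20.1% of all 915 subfamilies tested were called higher and 20.1% lower. With Z18trunc 17 of 19 were called higher and none lower, against 14.5% higher and 11.9% lower of all 925 subfamilies. By edgeR 18 of the 19 had an unadjusted p under 0.05 there, and no setting tried called any member subfamily lower. The median log2 fold change of the member subfamilies was 0.80 with Z18fl and 1.22 with Z18trunc, and that of all subfamilies tested was -0.01 with either. P-values measure only the spread between these libraries, since the labels do not say whether they came from separate cultures.

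L1P4d rose most. It stood at 2.37, 1.93 and 1.41 CPM in Clover, at 9.71, 7.71 and 10.4 in Z18fl, at 8.45, 6.82 and 7.18 in Z18trunc and at 5.30, 4.13 and 8.75 in Z18truncZnFmut. Its log2 fold change over Clover was 1.82 ± 0.18 (SE) with Z18fl (edgeR adjusted p = 8.1e-07) and 1.49 ± 0.22 with Z18trunc (adjusted p = 3.3e-05). With Z18truncZnFmut L1P4d was at 0.78 ± 0.29 and was not called (edgeR adjusted p = 0.19). A single element gave 51.5% of all L1P4d counts. It lies in an intron of the long non-coding RNA gene ENSG00000250954 (chr4:33954387-33955975). L1PB1, the largest subfamily with 6168 elements, stood at 211, 175 and 179 CPM in Clover, at 401, 356 and 550 in Z18fl and at 635, 650 and 533 in Z18trunc. Its log2 fold change was 0.74 ± 0.11 with Z18fl (edgeR adjusted p = 5.1e-05) and 1.22 ± 0.13 with Z18trunc (adjusted p = 1.2e-06), and no single element gave more than 5.31% of its counts. Beside these, L1PBa (1.07 and 1.48), L1PB3 (0.98 and 1.44) and L1P2 (0.94 and 1.13) were called higher with Z18fl and with Z18trunc.

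L1P4e went the other way. It stood at 3.87, 3.33 and 3.70 CPM in Clover and at 3.85, 3.64 and 3.72 in Z18fl, so the groups overlapped in counts per aligned fragment. On the edgeR scale, which sets the trimmed mean of all subfamilies equal between libraries, its log2 fold change was -0.43 ± 0.15 with Z18fl (edgeR adjusted p = 0.035), and with library sizes taken from aligned fragments it was 0.044. The call was lost without Clover replicate 1 or 3 and without any single Z18fl library. A single element in an intron of SCAPER, which encodes a protein tied to cyclin A, held 59.0% of its counts. L1P4b and L1PBa1 were not called with Z18fl, at 0.40 ± 0.45 (edgeR adjusted p = 0.52) and 0.25 ± 0.11 (adjusted p = 0.077).

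With Z18truncZnFmut 17 of the 18 subfamilies tested lay above Clover, but few were called. L1PB2 (0.97 ± 0.13, edgeR adjusted p = 0.015), L1PB4 (0.88 ± 0.13, adjusted p = 0.017) and L1PB3 (0.93 ± 0.15, adjusted p = 0.033) were called higher and none lower, so 3 of 18, where 1.3% of all 921 subfamilies were called higher and 0.0% lower. The median over the 18 was 0.71, and 14 had an unadjusted p under 0.05. The count of calls turned on single libraries. It was 15 without Z18truncZnFmut replicate 3, 1 without replicate 1 and 0 without replicate 2 or without any single Clover library. L1PB2 stood at 13.7, 11.6 and 13.2 CPM in Clover and at 32.7, 31.6 and 88.9 in Z18truncZnFmut, so replicates 1 and 2 of the mutant were close together and replicate 3 far above them.

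**Figure D2:**
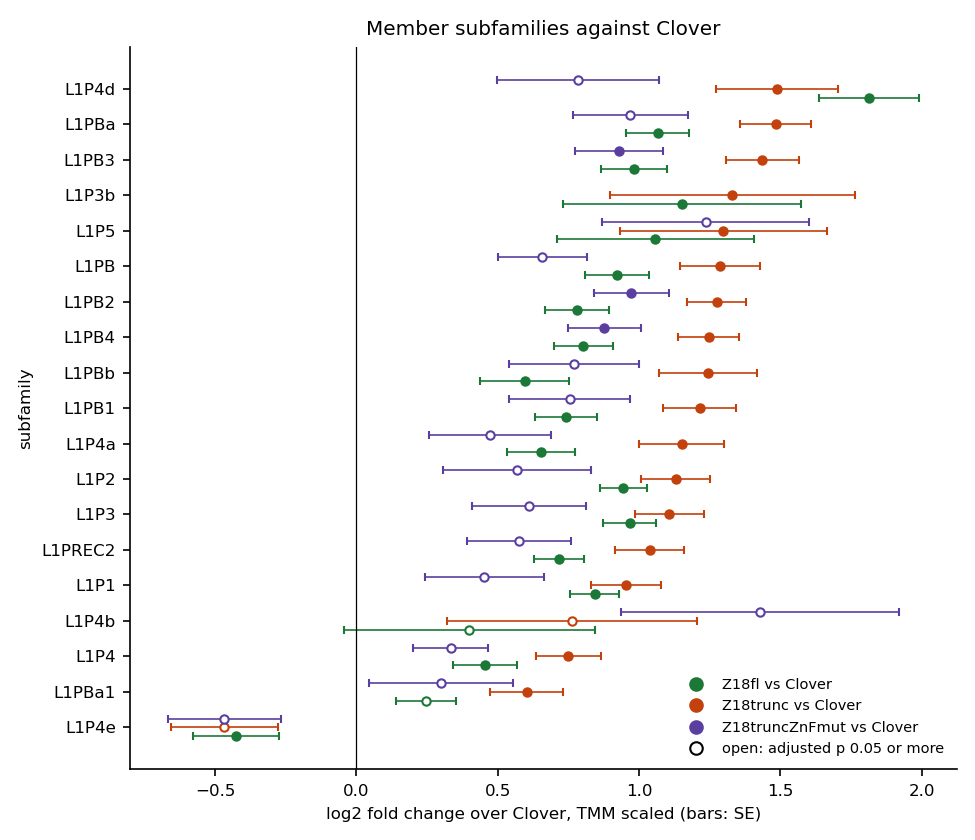
Log2 fold change over Clover (horizontal axis, edgeR, TMM scaled) of the member subfamilies tested, for Z18fl, Z18trunc and Z18truncZnFmut. Bars are the SE and filled points have an adjusted p under 0.05. All subfamilies but L1P4e lie to the right of 0, and 16, 17 and 3 of them are filled on that side.

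At single elements the tests reach a small part of the members. Of the 23670 members 621 were listed in all 12 libraries, and 820 had enough counts to be tested in at least 1 comparison. These 820 held 69.1% of all member counts, and the 100 highest held 33.4%. A member could pass the filter through its counts in 1 group alone, so the counts of calls describe the tested members and not all of them. Nor are the tested members independent, since 360 lay within 10000 bases of another on the same strand, and 547 lay in exons or introns of 352 genes.

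With Z18fl 264 of 425 tested members were called higher than Clover and 28 lower (62.1% and 6.59%; edgeR, adjusted p under 0.05), where 28.3% of all 12098 loci tested were called higher and 24.6% lower. The median log2 fold change was 1.45 over the members and 0.01 over all loci. The count of members called lower was 16 without Z18fl replicate 1 or without replicate 2. Other primate and older L1 gave like values, with medians of 1.55 for L1PA7 to L1PA17 (655 loci) and 1.63 for L1MA1 to L1MA4 (153 loci), and 0.98 for all L1 outside the members (3106 loci). Loci outside L1 had a median of -0.32.

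With Z18trunc 348 of 524 tested members were called higher and 13 lower (66.4% and 2.48%), where 22.5% of all 13204 loci were called higher and 13.4% lower by edgeR. The median over the members was 1.84, against -0.03 over all loci, 1.86 for L1PA7 to L1PA17 and 2.21 for L1MA1 to L1MA4. With Z18truncZnFmut 167 of 332 were called higher and 3 lower (50.3% and 0.90%), where 12.3% of all 10152 loci were called higher and 4.83% lower. The median over these members was 1.16, against -0.05 over all loci, 1.24 for L1PA7 to L1PA17 and 1.54 for L1MA1 to L1MA4. Without replicate 3 of the mutant 144 of 334 members were called higher, beside 10.4% of all loci, and the median was 1.22. The count of 3 lower fell to 1 without Z18truncZnFmut replicate 1, without Clover replicate 1 or without Clover replicate 3. The 3 comparisons share the Clover libraries and tested different numbers of members, so their counts were not set against one another. With library sizes taken from aligned fragments, and over loci tested on both scales, the all-loci medians became 0.40, 0.33 and 0.16 for Z18fl, Z18trunc and Z18truncZnFmut and the member medians 1.84, 2.26 and 1.38. Of these 11677 loci 4318 were called higher and 1697 lower with Z18fl, of 12221 loci 3735 and 494 with Z18trunc, and of 9698 loci 1530 and 133 with Z18truncZnFmut. With TMM scaling, over all loci tested on that scale, the calls were 3424 and 2981, 2969 and 1773, and 1245 and 490. The 415, 508 and 326 members tested on both scales split 292 to 16, 396 to 8 and 193 to 1 by aligned fragments.

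Members in introns were well above Clover and members in exons near it. Summed members in introns, read in the direction of the host gene, stood at 349, 288 and 315 CPM in Clover and at 868, 802 and 1126 in Z18fl. In Z18trunc they stood at 1234, 1251 and 997 and in Z18truncZnFmut at 872, 762 and 1099. Every ZC3H18 library was above every Clover library, at 2.94, 3.66 and 2.87 times the Clover mean (2.58 for Z18truncZnFmut without replicate 3). The 164 exonic members, with at least 50% of their length in exons on their strand, were near Clover. They stood at 69.5, 62.2 and 65.8 CPM in Clover, 62.9, 67.2 and 76.5 in Z18fl, 82.5, 77.6 and 70.4 with Z18trunc, and 78.9, 69.0 and 69.4 with the mutant. The ratios to the Clover mean were 1.05, 1.17 and 1.10, the Z18fl and Z18truncZnFmut libraries overlapped Clover, and the Z18trunc libraries lay just above it. Summed members between genes were at 2.24 and 2.91 times the Clover mean with Z18fl and Z18trunc, and antisense members at 1.59 and 2.44 times. With Z18truncZnFmut these were 3.48 and 3.78 times, above the intronic value, and 2.19 and 1.94 times without replicate 3. The exonic share of member counts went from 10.9% ± 0.472 in Clover to 4.75% ± 0.472 in Z18fl and 4.12% ± 0.154 in Z18trunc (SD, n = 3).

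Among tested members the order of the medians was the same in all 3 comparisons with Clover. Intronic members had medians of 1.70, 2.10 and 1.47 on the log2 scale for the 3 proteins in that order, and 194 of 273, 254 of 340 and 121 of 203 were called higher by edgeR. Of all intronic loci tested 41.8%, 35.4% and 21.3% were called higher. Members between genes had medians of 1.29, 1.64 and 1.11. Members antisense to a gene were nearer to Clover, at 0.28, 0.80 and 0.72, and of the 26, 36 and 27 tested 8, 17 and 9 were called higher, where 18.8%, 15.98% and 8.16% of all antisense loci were. Exonic members were at -0.20, 0.08 and -0.03, with 5 higher and 5 lower of 26 for Z18fl, 3 higher and 4 lower of 27 for Z18trunc and 1 higher and 2 lower of 23 for Z18truncZnFmut. Of all exonic loci 11.5%, 4.08% and 0.914% were called higher and 42.4%, 26.6% and 10.7% lower. Other L1 showed the same order, from 1.48 in introns to -0.14 in exons for Z18fl. Without Z18truncZnFmut replicate 3 the mutant's medians were 1.52 in introns, 0.98 between genes, 0.40 antisense and 0.09 in exons. The differences between positions were not tested.

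**Figure D3:**
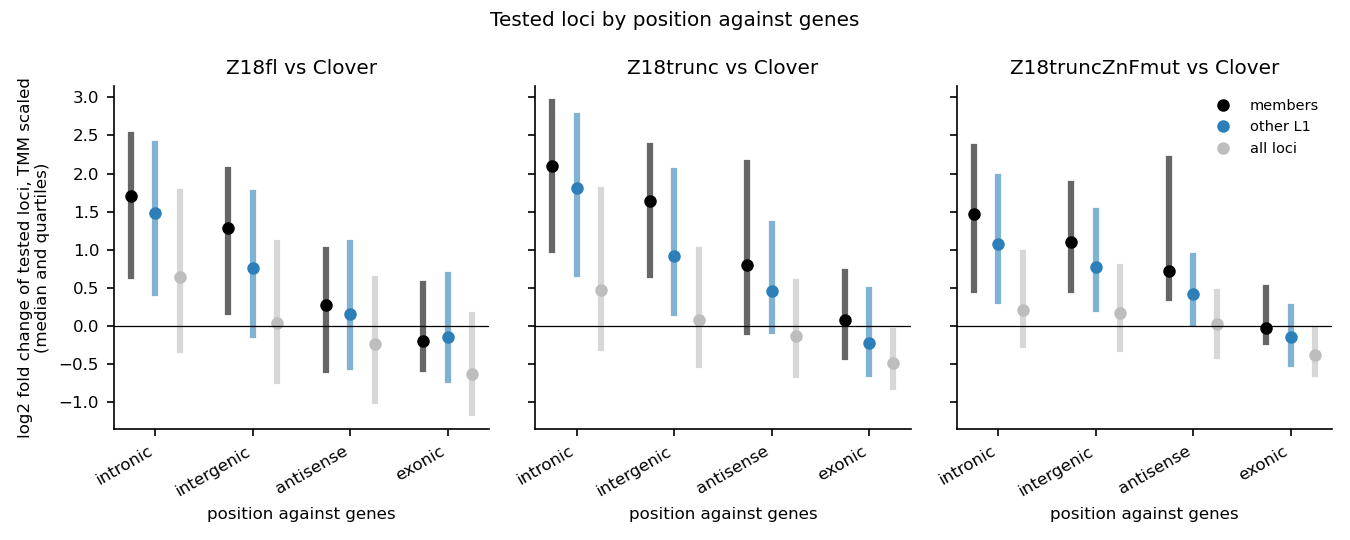
Log2 fold change over Clover (vertical axis, edgeR, TMM scaled) of tested loci in introns, between genes, antisense to a gene and in exons, for the members, all other L1 and all loci. Points are medians and bars run from the lower to the upper quartile of loci. In each panel the members fall from introns (1.70, 2.10 and 1.47) to exons (-0.20, 0.08 and -0.03).

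Some host genes held several tested members that moved alike. In DCBLD2, which encodes a transmembrane protein, 5 of 5 members were called higher with Z18fl, 6 of 6 with Z18trunc and 4 of 4 with Z18truncZnFmut, at medians of 2.31, 2.79 and 1.71. In NEK7, a protein kinase gene, 4 of 4 were called higher with Z18fl and with Z18trunc, at medians of 2.68 and 3.08, and in DNAH14, a dynein heavy chain gene, the 4 members had medians of 3.59 and 3.76. ENSG00000258657 was the reverse. Its 4 tested members, of L1PBa, L1PBb and L1PB3, lie in introns on its strand, and all 4 were called lower with Z18fl, at a median of -1.66, while 2 of 4 were called lower with Z18trunc (median -0.78) and 0 of 4 with Z18truncZnFmut (median -0.26). In LONRF3 2 of 4 were called lower with Z18fl and none higher, at a median of -0.80, against 1 lower with Z18trunc (median 0.09) and 0 with Z18truncZnFmut (median 0.19). Genes with at least 4 tested members in a comparison were considered, and those given here were chosen after their values were seen. Elements of a gene share its transcript, so such members are not separate observations.

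Between the truncated and the full-length protein the members differed little, and the groups of subfamilies did not do so alike. Of 784 tested members 46 were called higher in Z18trunc and 9 lower (5.87% and 1.15%; edgeR), where 2.62% of all 19413 loci were called higher and 3.13% lower. The median over the members was 0.28, against 0.01 over all loci, 0.24 for L1PA7 to L1PA17 and 0.42 for L1MA1 to L1MA4. Of these other L1 parts 4.73% and 10.3% were called higher and 1.70% and 1.39% lower. L1PB elements had a median log2 difference of 0.41 and 31 of 447 were called higher and 2 lower. L1P1 to L1P3 elements had a median of -0.00, with 3 higher and 4 lower of 194. L1P4 and L1P5 elements were at 0.20 (6 higher of 39) and L1PREC2 elements at 0.26 (6 higher and 3 lower of 104). In CPM the summed L1PB elements were at 680, 625 and 921 in Z18fl and at 1063, 1083 and 922 in Z18trunc, so every Z18trunc library was above every Z18fl library by a margin that was below 1 CPM at its narrowest. The summed L1P1 to L1P3 elements were at 419, 407 and 521 in Z18fl and at 526, 520 and 453 in Z18trunc, and overlapped. The difference between the groups of subfamilies was not tested.

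The summed members of Z18fl replicate 3 and Z18trunc replicate 3 lay nearest to each other, at 1764 and 1689 CPM. The count of members called higher was 63 without either of them and 9 to 14 without any other library (12 without Z18fl replicate 1, 9 without replicate 2, 12 without Z18trunc replicate 1 and 14 without replicate 2). The count called lower was 4, 4, 5 and 4 without these same 4 libraries, and 6 without either replicate 3. Of 19 subfamilies L1PB2 (0.47 ± 0.10, edgeR adjusted p = 0.024) and L1PBb (0.62 ± 0.15, adjusted p = 0.042) were called higher in Z18trunc, where 1.48% of all 948 subfamilies were called higher and 2.43% lower. That count was 12 without Z18trunc replicate 3, 3 without Z18fl replicate 3 and 0 without any other single library. L1PB2 stood at 29.1, 26.0 and 36.5 CPM in Z18fl and at 42.9, 42.3 and 46.0 in Z18trunc, with no overlap.

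The aromatic mutant and the truncated protein could be told apart at few members. Of 714 tested 2 were called higher in Z18truncZnFmut than in Z18trunc and 8 lower (0.28% and 1.12%; edgeR), where 0.368% of all 16833 loci were called higher and 0.351% lower. The median log2 difference of the members was -0.29, against 0.01 over all loci and 0.10 over loci outside L1. Other L1 shifted the same way, with medians of -0.30 for L1PA7 to L1PA17, -0.33 for L1MA1 to L1MA4 and -0.18 for all L1 outside the members. Scaled by aligned fragments, over loci tested on both scales, the split was 1 higher and 16 lower, with 24 higher and 135 lower of all loci against 62 and 59 on the edgeR scale, while the median of all loci moved to -0.16 and that of the members to -0.45. Of 19 subfamilies 17 lay below 0, with a median of -0.43, but edgeR called none in either direction (0.0% of all 957 called), with 5 at an unadjusted p under 0.05, and DESeq2 called none. The L1PB subfamily itself was at -0.60 ± 0.16 (edgeR adjusted p = 0.82). Without Z18truncZnFmut replicate 3 the split at loci was 0 higher and 5 lower of 856, and the median was -0.38. The counts of 2 higher and 8 lower were 5 and 3 without Z18truncZnFmut replicate 1, 0 and 4 without replicate 2, and 0 and 0, 1 and 1, and 1 and 2 without Z18trunc replicates 1, 2 and 3.

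**Figure D4:**
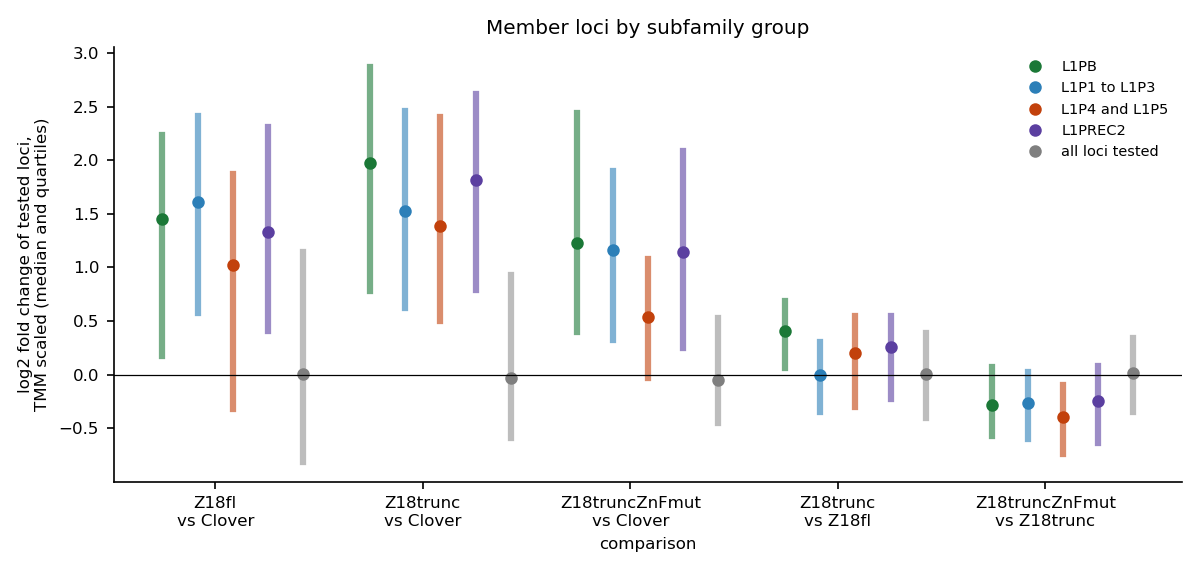
Log2 difference (vertical axis, edgeR, TMM scaled) of tested member loci by group of subfamilies, beside all loci tested, in the 5 comparisons. Points are medians and bars run from the lower to the upper quartile of loci. Against Clover all 4 groups have medians above 0.5, between Z18trunc and Z18fl L1PB is at 0.41 and L1P1 to L1P3 at -0.00, and between Z18truncZnFmut and Z18trunc all 4 lie below 0.

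Within the limits of the naming rule on counts and mapping, the members that rose most against Clover were nearly absent from the Clover libraries. Members outside those limits had larger fitted changes and are not named. The L1P2 element in an intron of SRPK2, a kinase gene for splicing factors (chr7:105359806-105360774, 969 bases, 6.70% divergent from its consensus), had 1, 0 and 1 counts in Clover and 77, 74 and 89 in Z18fl. It had 67, 75 and 72 counts in Z18trunc and 31, 26 and 37 in Z18truncZnFmut. All 9 ZC3H18 libraries were far above Clover, and the 3 mutant libraries were below the other 6. Per aligned fragment the ratio to Clover was 86.0 with Z18fl (exact 95% interval 23.6 to 714), 76.9 with Z18trunc (21.0 to 639) and 34.7 with Z18truncZnFmut (9.35 to 291), with edgeR adjusted p of 5.1e-08, 8.2e-08 and 2.1e-05. Between Z18truncZnFmut and Z18trunc its log2 difference was -0.97 ± 0.24, which was not called (edgeR adjusted p = 0.061). Such intervals cover counting error only.

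The L1PB1 element in an intron of DNAH14 (chr1:224984733-224985616) had 0, 2 and 0 counts in Clover and 19, 25 and 71 in Z18fl. With Z18trunc it had 44, 66 and 44, and with the mutant 24, 20 and 28. It ranked among the 3 rises named in each of the 3 comparisons with Clover, for which the rule required no overlap with Clover. Its ratios to Clover were 41.2 (exact 95% interval 11.2 to 344), 55.3 (15.1 to 461) and 26.6 (7.10 to 224). The L1P4a element in an intron of ENSG00000285751 (chr11:39133129-39137173, 21.1% divergent) had 0, 0 and 1 counts in Clover and 10, 18 and 28 in Z18fl, 48, 55 and 40 with Z18trunc, and 19, 25 and 25 with the mutant. The Z18trunc libraries were above all others. Its ratio to Clover was 103 with Z18trunc (exact 95% interval 18.1 to 4085) and its log2 difference between Z18trunc and Z18fl was 1.28 ± 0.28 (edgeR adjusted p = 0.010), which was lost without Z18fl replicate 1.

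Members that also rose by the naming rule were an L1PREC2 element in an intron of EHBP1, a gene of endocytic traffic, and an L1PB1 element in an intron of ENSG00000239572. The first (chr2:62767854-62771176) had 1, 0 and 0 counts in Clover and 15, 22 and 25 in Z18fl, a ratio of 44.4 (exact 95% interval 7.69 to 1783; edgeR adjusted p = 0.0001). The second (chr3:87774069-87777442) had 1, 0 and 3 counts in Clover and 31, 43 and 43 in Z18truncZnFmut, with a log2 fold change of 4.16 ± 0.61 (edgeR adjusted p = 2.9e-05). The rule required that neither group overlapped Clover.

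The members with the most counts were well covered in Clover too, and they rose less. The named rises were ranked by fold change and these by summed counts, so the contrast follows in part from the ranking. The L1PB1 element in an intron of ENSG00000287474 (chr2:75969057-75974547) had 80, 87 and 99 counts in Clover and 487, 448 and 806 in Z18fl. With Z18trunc it had 945, 1072 and 672, and with the mutant 694, 560 and 726. Its log2 fold changes over Clover were 1.84 ± 0.16, 2.503 ± 0.16 and 2.26 ± 0.17 (edgeR adjusted p = 8.8e-08, 1.2e-09 and 1.4e-09). The L1PREC2 element in an intron of DCBLD2 (chr3:98831351-98834041) had 179, 136 and 156 counts in Clover and 409, 374 and 713 in Z18fl, and its 3 log2 fold changes were 0.79, 1.41 and 1.25. The L1P2 element in an intron of ZFPM2-AS1, a long non-coding RNA (chr8:105843167-105846222), had 190, 182 and 217 counts in Clover and 513, 473 and 694 in Z18fl, and its 3 log2 fold changes were 0.66, 0.94 and 0.80. All of these were called higher by edgeR in each comparison with Clover.

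Falls that met the naming rule were found with Z18fl. The L1PBb element in an intron of ENSG00000258657 (chr14:24644784-24645147, 364 bases) had 33, 15 and 22 counts in Clover and 5, 3 and 12 in Z18fl, though the Z18fl libraries were deeper. It had 18, 14 and 16 counts in Z18trunc and 34, 14 and 17 in Z18truncZnFmut, both of which overlapped Clover as raw counts. Per aligned fragment every Z18trunc library lay below every Clover library, while Z18truncZnFmut still overlapped Clover. The element averaged 1.37 ± 0.56 CPM in Clover, 0.67 ± 0.089 in Z18trunc and 0.92 ± 0.42 in Z18truncZnFmut (SD, n = 3). Its log2 fold change was -2.64 ± 0.45 with Z18fl (edgeR adjusted p = 0.00012) and -1.36 ± 0.36 with Z18trunc (adjusted p = 0.0060), the latter lost without Clover replicate 1. The other 3 tested members of that gene had log2 fold changes of -1.70, -1.62 and -1.25 with Z18fl and all were called. The L1PB1 element antisense to UPRT (chrX:75170337-75172536) had 38, 46 and 32 counts in Clover and 23, 23 and 17 in Z18fl, a log2 fold change of -1.71 ± 0.29 (edgeR adjusted p = 0.00012). With Z18trunc (51, 47 and 28) and the mutant (55, 40 and 57) its raw counts overlapped Clover. It was still called lower with Z18trunc, at -0.71 ± 0.27 (edgeR adjusted p = 0.044), and not with the mutant, at -0.26 ± 0.26 (edgeR adjusted p = 0.57). No fall met the rule with Z18trunc or with Z18truncZnFmut, though 13 and 3 members were called lower there. The rule compares raw counts, and every ZC3H18 library was deeper than every Clover library, so falls met it less readily than rises.

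Of the 3 members called lower than Clover with Z18truncZnFmut, 2 are exonic pieces of L1PB1 in NFX1, a zinc-finger transcription factor gene, and they are named after their values were seen. The longer (chr9:33347490-33348070) had 128, 104 and 119 counts in Clover and 105, 140 and 111 in Z18truncZnFmut, which overlap as counts. Its log2 fold changes were -0.91, -0.78 and -0.59 with Z18fl, Z18trunc and Z18truncZnFmut (edgeR adjusted p = 0.00017, 0.00061 and 0.047). The shorter (chr9:33348367-33348502) was at -1.64, -0.92 and -0.60 (edgeR adjusted p = 1.8e-06, 0.00051 and 0.037). With library sizes from aligned fragments neither piece was called lower with Z18truncZnFmut. The third is an L1PREC2 element near ribosomal RNA genes on chromosome 21.

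Between Z18trunc and Z18fl the L1PB1 element antisense to GPR137B, a gene for a lysosomal membrane protein (chr1:236198505-236202408), had 60, 43 and 56 counts in Z18trunc and 17, 16 and 18 in Z18fl, a log2 difference of 1.56 ± 0.27 (edgeR adjusted p = 0.0012). An L1PB1 element between genes (chr12:87147394-87152200) had 42, 49 and 46 against 14, 13 and 21 counts (1.44 ± 0.27, edgeR adjusted p = 0.0026). For both, the naming rule required that the Z18trunc libraries lay clear of the Z18fl libraries. In the other direction the L1PBa1 element in exons of ARFGEF1, which encodes an activator of ARF GTPases (chr8:67313194-67314809), had 48, 31 and 35 counts in Z18trunc and 64, 92 and 80 in Z18fl (-1.13 ± 0.23, edgeR adjusted p = 0.0058), a call lost without Z18fl replicate 2. The L1PB1 element in an intron of ARHGAP32 (chr11:129236599-129237221), had 11, 13 and 10 against 19, 28 and 36 counts (-1.35 ± 0.33, edgeR adjusted p = 0.020). That call was lost without Z18fl replicate 2 or 3 and without Z18trunc replicate 1 or 2.

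The falls of the aromatic mutant below Z18trunc that the rule named were a pair of elements between genes on chromosome 5. The L1PBa element at chr5:85508886-85513889 had 18, 17 and 15 counts in Clover and 147, 115 and 270 in Z18fl. With Z18trunc it had 273, 271 and 200, and with the mutant 120, 76 and 97. Its log2 difference between Z18truncZnFmut and Z18trunc was -1.14 ± 0.18 (edgeR adjusted p = 0.0023), lost without Z18trunc replicate 1. The L1PREC2 element at chr5:85454810-85460436, on the same strand, had 8, 10 and 6 counts in Clover, 123, 137 and 93 in Z18trunc and 64, 30 and 57 in Z18truncZnFmut, a difference of -1.02 ± 0.22 (edgeR adjusted p = 0.032). That call was lost without any single Z18trunc library and without Z18truncZnFmut replicate 2. Both elements stayed above Clover with the mutant, at 1.89 ± 0.26 and 1.97 ± 0.38 (edgeR adjusted p = 1.5e-05 and 0.00054). The 2 members called higher in the mutant, named after their values were seen, were an L1PB1 element between genes (chr4:113414973-113417425), at 0.96 ± 0.21 (edgeR adjusted p = 0.033), and an L1P4 element in an intron of RIPK2-DT (chr8:89745088-89746043), at 2.42 ± 0.52 (adjusted p = 0.029). The first had 91, 98 and 89 counts in Z18truncZnFmut and 57, 64 and 46 in Z18trunc, with no overlap, and the second had 12, 30 and 45 against 4, 12 and 3, which touched at 12. Both rises lost their call without Z18truncZnFmut replicate 2 or 3 and without Z18trunc replicate 1. The first also lost it with library sizes from aligned fragments. The second was below Clover with Z18fl and Z18trunc, at -2.02 ± 0.46 and -1.85 ± 0.53 (edgeR adjusted p = 0.0014 and 0.0098).

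**Figure D5:**
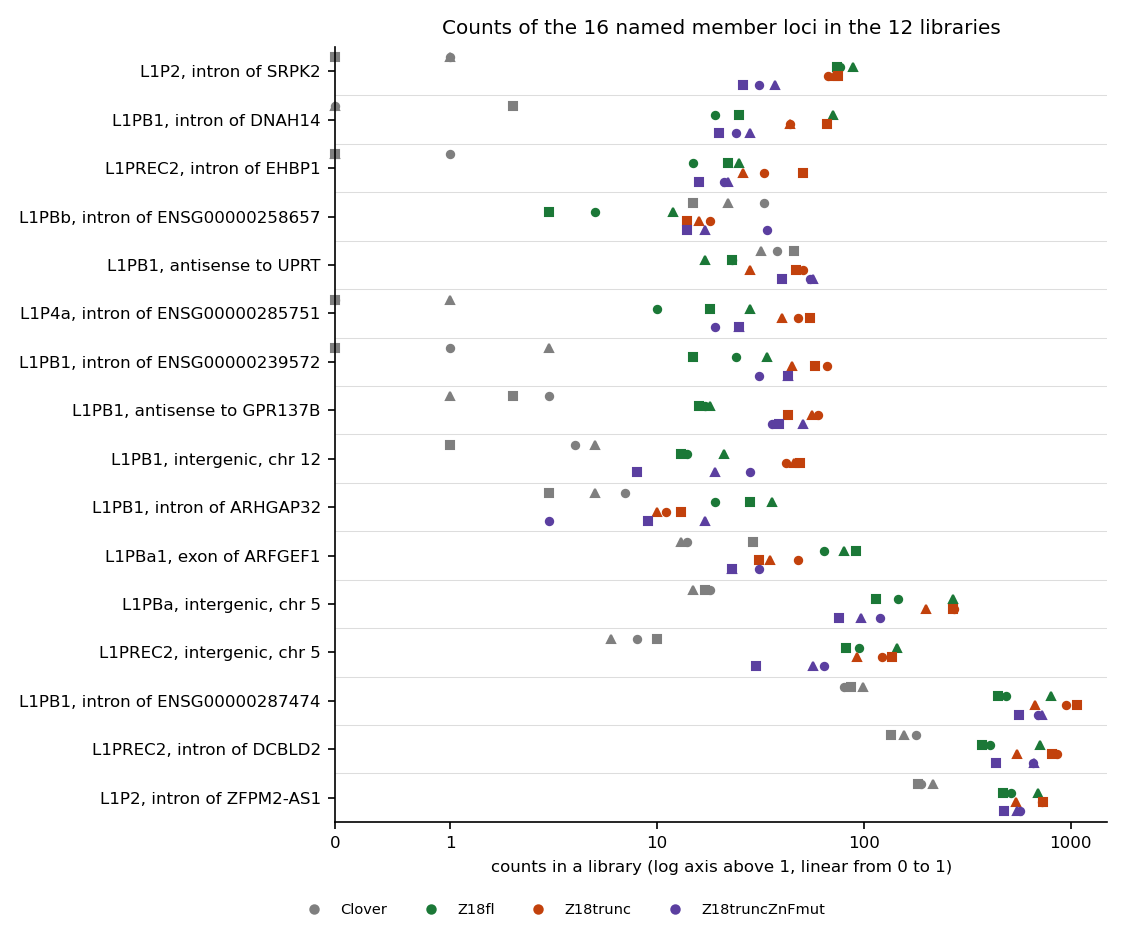
Counts (horizontal axis, logarithmic above 1) of the 16 named member loci in each library, by construct. Circles, squares and triangles are replicates 1, 2 and 3, and points can hide one another. Members such as the L1P2 element in SRPK2 have 0 to 1 counts in Clover and 26 to 89 with the ZC3H18 proteins, while the L1PBb element in ENSG00000258657 has 15 to 33 in Clover and 3 to 12 in Z18fl.

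Longer members were called higher more often. With Z18fl 29 of 75 tested members under 1000 bases were called higher (38.7%), 134 of 215 of 1000 to under 3000 bases (62.3%) and 101 of 135 of 3000 bases or more (74.8%), with medians of 0.66, 1.45 and 1.71. With Z18trunc the shares were 41.8%, 67.4% and 77.9%, and with Z18truncZnFmut 18.4%, 43.9% and 70.6%. The order was the same with all 3 proteins. Longer elements also gather more counts, and the part of this in the calls was not tested. Of all loci tested, at any length, 28.3%, 22.5% and 12.3% were called higher with the 3 proteins. Of all other L1 the shares were 51.2%, 53.2% and 37.6%. Other loci were not split by length, so whether the trend is particular to the members was not tested. Of the 23183 members with at least 1 count, 12454 were under 1000 bases and the median length was 897 bases.

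Base composition and age differed little between members called higher and members not called. Members called higher with Z18fl had medians of 40.4% A and 20.7% T on their strand, and those not called 39.9% and 20.3%. All other L1 tested had 38.6% and 20.8%, and all loci tested 29.4% and 20.3%. Their median divergence from the subfamily consensus was 10.45%, against 10.2% for those not called. Motifs were sought in a window of 300 bases around the middle of the element, on its strand alone and running past the ends of shorter elements. AATAAA (the letters of the polyadenylation signal) was found in 45.1% of members called higher and 47.4% of those not called. It was found in 46.8% of other L1, much as in the members, against 26.3% of all loci tested. TTTTT was found in 11.4% and 11.3%, against 19.1% of all loci and 35.0% of other L1, and TTTTAT, which can share letters with TTTTT, in 5.68% and 5.26%, against 4.65%. With Z18trunc the shares of members called higher were 47.7%, 13.8% and 5.46%. The few members called lower were less alike. The 28 with Z18fl had 38.6% A and a divergence of 11%, with AATAAA in 60.7% and TTTTT in 3.57%, and the 13 with Z18trunc had 32.6% A and a divergence of 12.7%, with AATAAA in 38.5% and no TTTTT. Their place differed more, since 73.5% of those called higher were intronic and 1.89% exonic with Z18fl, against 48.9% and 12.03% of members not called.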

How the data were processed

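Anti-V5 PAR-CLIP libraries of A375 cells (4 proteins, 3 libraries each, ribosomal RNA depleted, stranded) had been trimmed with cutadapt 4.6 per the labels, aligned to hg38 and counted per repeat with SQuIRE, whose version is not given in the sources used here. The deposited total is an expected count, in which the authors' SQuIRE run adds a share of multiply mapped reads to the unique reads, and it was rounded to whole numbers for testing. Unique reads and aligned fragments were deposited as counts. The deposited percent sets the total against every read that could be placed on the element, and the deposited divergence score was turned into percent. A column of FPKM values was not used.

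Rows read on the element's strand in 6 repeat classes were kept. Each comparison was fitted on its 6 libraries with edgeR 4.0.16 (quasi-likelihood, TMM, filterByExpr with minimum count 10 and minimum total 15) over all loci and over all subfamilies, with Benjamini-Hochberg adjustment and a threshold of 0.05, in R 4.3.3. Errors of log2 fold changes are SE. The fits were also run on simulated data with 200 changed features, up or down. Far more loci were called against Clover, so the simulation cannot check the scaling there. The members and lists were chosen with earlier results of these data known. Named loci had at least 20 mean counts and a mean percent of at least 80 in the higher group, and no overlap between groups in raw counts. They were the 3 that rose and 2 that fell most against Clover, the 2 in each direction otherwise, and the 3 with most counts. The files give no read positions within an element, so sequence windows were centred on the element. Some sequences are not reported here. Gene context came from GENCODE 44. Ratios with few counts carry exact 95% intervals. DESeq2 1.42.0, aligned-fragment library sizes, no filter, unique reads, either strand, 1 fit over 12 libraries, a replicate block and leaving out each library were the alternatives.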

Additional observations from a re-analysis of the deposited data

Results flagged for a closer look

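Reads antisense to the members, which entered the comparisons above through the strand share alone, were above the Clover level in each ZC3H18 group. Clover stood at 234 ± 28.0 CPM (SD, n = 3) with a highest library of 262. Z18fl stood at 305, Z18trunc at 387 and Z18truncZnFmut at 731, and the last was 314 without replicate 3.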

How the results depend on the processing

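Counts per element limit what can be tested, since 820 of 23670 members had enough counts in any comparison. Leaving out each library in turn gave these ranges of members called against Clover: 206 to 373 higher and 16 to 39 lower with Z18fl, 256 to 461 and 9 to 16 with Z18trunc, and 135 to 208 and 1 to 3 with Z18truncZnFmut. Between Z18trunc and Z18fl the ranges were 9 to 63 higher and 4 to 6 lower, and between Z18truncZnFmut and Z18trunc 0 to 5 and 0 to 5. For subfamilies called higher the ranges were 14 to 15, 16 to 17, 0 to 15, 0 to 12 and 0 to 0 in the same order, and for Z18fl against Clover 0 to 1 were called lower. The excess over Clover in summed CPM ranged over 708.4 to 952.2, 1207 to 1344 and 760.4 to 1427 for Z18fl, Z18trunc and Z18truncZnFmut, and that in percent of element counts over 1.067 to 1.376, 1.638 to 1.934 and 1.075 to 1.282.

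DESeq2 called 17 members lower with Z18fl and 1 lower with Z18truncZnFmut against Clover, 26 higher and 5 lower in Z18trunc against Z18fl, and 1 higher in Z18truncZnFmut against Z18trunc. At subfamilies it called 8 higher with Z18truncZnFmut against Clover, 5 higher in Z18trunc against Z18fl and 0 lower with Z18fl. In 1 fit over all 12 libraries 431 members were higher with Z18fl, 342 higher and 7 lower with Z18truncZnFmut, and 21 lower with Z18trunc, all against Clover. That fit called 9 higher and 2 lower in Z18trunc against Z18fl and 1 higher in Z18truncZnFmut against Z18trunc, and of subfamilies 9 higher with Z18truncZnFmut, 0 lower with Z18fl and 0 higher in Z18trunc against Z18fl. Library sizes from aligned fragments, over all members tested in that fit (411 for Z18truncZnFmut against Clover), gave 16 lower with Z18fl, 8 lower with Z18trunc, 255 higher and 1 lower with Z18truncZnFmut, and 1 higher and 16 lower in Z18truncZnFmut against Z18trunc. They also gave 9 subfamilies higher with Z18truncZnFmut and 0 lower with Z18fl, where L1P4e turned to 0.044. Without a filter on low counts 403 were higher and 11 lower with Z18fl, 533 higher and 2 lower with Z18trunc, 1 lower with Z18truncZnFmut, 14 higher and 4 lower in Z18trunc against Z18fl, and 4 lower in Z18truncZnFmut against Z18trunc, with 1 subfamily higher in Z18trunc against Z18fl and 0 lower with Z18fl. Unique reads alone gave 16 lower with Z18fl, 102 higher and 1 lower with Z18truncZnFmut, 1 higher in Z18truncZnFmut against Z18trunc, 0 subfamilies lower with Z18fl, and an excess of 877.4 CPM with Z18trunc. Counting either strand gave an excess of 1409 CPM with Z18trunc and of 0.8069, 1.192 and 0.9034 percentage points of element counts with Z18fl, Z18trunc and Z18truncZnFmut. The causes were not tested.

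Same-numbered replicates correlated at -0.109 to 0.0527 in their deviations from the group means, so the numbers were not taken to pair the libraries. With the replicate number as a block 1 member was higher and 2 lower in Z18truncZnFmut against Z18trunc, and of subfamilies 0 were higher in Z18trunc against Z18fl, 0 higher in Z18truncZnFmut against Clover and 0 lower in Z18fl against Clover. Of the single subfamilies and loci named, 113 of the recomputed values lost their call in the same direction and 1 reversed, against 921 that kept direction and side of the threshold.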

Other observations

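The third member called lower than Clover with Z18truncZnFmut, chosen after its values were seen, is an L1PREC2 element of 270 bases at chr21:8231118-8231387, which lies 18394 bases after RNA5-8SN2 and 25394 bases before another 5.8S ribosomal RNA gene. It had 89, 12 and 71 counts in Clover, 107, 27 and 113 in Z18fl, 34, 39 and 16 with Z18trunc, and 8, 4 and 4 with Z18truncZnFmut. Its log2 fold change over Clover was -4.02 ± 0.53 with Z18truncZnFmut (edgeR adjusted p = 6.6e-06), -1.77 ± 0.43 with Z18trunc (edgeR adjusted p = 0.0032) and -0.34 ± 0.44 with Z18fl (edgeR adjusted p = 0.53).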
